A study of Mus musculus with 10 samples.

Results

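The comparison described here is that of OP9 reaggregates 1 to 4 with OP9 reaggregates 5 and 6, which is 6 of the 10 RNA-seq libraries of the series. The split was not given by a label. It was chosen from the expression values of these same libraries, in which reaggregates 1 to 4 lay apart from reaggregates 5 and 6, so its differences are a description and no test of them was made. Genes were kept where they exceeded 0.5 RPM (the reads of a gene scaled to all reads on genes of that library) in at least 1 reaggregate, which left 16292 of the 26888 genes in the deposited table.

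OP9 is a stromal cell line from calvaria of strain (C57BL/6xC3H)F2-op/op. The labels call the calvaria foetal, whereas the paper gives newborn mice as their source. The study compared flat, submersed culture of OP9 cells with their reaggregates. All 6 reaggregates were kept for 48 h on nitrocellulose filters where liquid meets gas. Reaggregates 2, 4 and 6 also received IL-3, which the labels give at 200 µg/µl, and reaggregates 1, 3 and 5 did not, so that each of the pairs 1-2, 3-4 and 5-6 held 1 library of each kind. The 4 flat cultures, of which 2 and 4 carry the name of the de Bruijn group and 1 and 3 carry none, were used to look genes up in libraries that the split did not use. The labels do not state which group's cells were reaggregated, nor that the libraries came from separate cultures, so the p-values given for IL-3 and for the flat cultures measure the spread between these samples, which may be technical. All values are those of 1 established line.

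Stromal cells build the connective tissue that surrounds other cells. They secrete collagens, proteoglycans and proteases, and they supply growth factors and chemokines to blood-forming cells. OP9 cells lack macrophage colony-stimulating factor because of the op mutation, and they are widely used as a feeder layer for haematopoietic cells. The labelled cell type was checked against its markers. Of 15 stromal markers 13 exceeded 0.5 RPM in at least 1 reaggregate, with *Fn1* the one with the most reads, and *Thy1* and *Nt5e* did not exceed 3 reads, the floor used here, in any reaggregate. Summed over the list, the stromal markers reached 34400, 34000, 26000 and 26900 RPM in reaggregates 1 to 4, against 37900 and 33200 RPM in reaggregates 5 and 6. The pair 3-4 was the lowest and reaggregate 5 the highest. The blood markers *Ptprc* and *Emr1*, the T cell markers *Cd3e* and *Cd3d* and the epithelial markers *Cdh1* and *Epcam* were listed at 0 in all 6 reaggregates. Of the lymphoid list 1 of the 6 genes in the table exceeded the filter (*Cd4*), and the list summed to 0.769, 0.681, 0.436 and 0.64 RPM in reaggregates 1 to 4 and to 0 and 5e-06 RPM in 5 and 6. Of the epithelial list 1 of 8 did (*Krt19*), with sums of at most 0.768 RPM. The neural list, 5 of 7 genes above the filter and led by *Tubb3*, summed to 25.4, 22.5, 20.2 and 17.6 RPM in reaggregates 1 to 4, against 30.2 and 33.4 RPM in reaggregates 5 and 6, where it was highest, and its part in the differences was not tested. The skeletal muscle list, 2 of 5 genes above the filter, summed to at most 3.6 RPM, and the pluripotency list, of which 1 gene was in the table, to at most 0.762 RPM. The macrophage list, with *Lyz2* as its most abundant gene, summed to 34.0, 37.6, 19.4 and 19.1 RPM in reaggregates 1 to 4 and to 35.5 and 37.9 RPM in reaggregates 5 and 6, and of its 14 genes 8 exceeded the filter. Its lowest sums were those of the pair 3-4, and its part in the differences was not tested. The erythroid list had 2 of the 4 genes in the table above the filter and was led by *Hba-a1*. It summed to 3.34, 3.15, 0.24 and 0.277 RPM in reaggregates 1 to 4 and to 3.13 and 3.36 RPM in reaggregates 5 and 6. The pair 3-4 was again lowest, and the part of this list in the differences was not tested. The endothelial list, 3 of 9 above the filter and led by *Vwf*, summed to at most 6.18 RPM, and 0 of the 5 mast cell markers in the table exceeded the filter. Summed over the 4 Y-linked genes in the table, no reaggregate exceeded 0.218 RPM and flat cultures 1 and 3 did not exceed 0.12 RPM, whereas flat cultures 2 and 4 stood at 107 and 124 RPM.

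The libraries rested on 7.81, 7.35, 9.17 and 7.81 M reads (mega, as in megabase) on genes in reaggregates 1 to 4 and on 9.26 and 9.43 M in reaggregates 5 and 6, taking the commonest RPM value above 0 as 1 read. At that depth the floor of 3 reads is worth 0.318 to 0.408 RPM, and it takes account of counting error alone. Reaggregates 1 to 4 had 15279, 15318, 15010 and 15064 genes above 0.5 RPM, and reaggregates 5 and 6 had 14517 and 14577. The pair 5-6 therefore had the fewest genes above 0.5 RPM of the reaggregates, although its libraries were the deepest. Over the 16292 genes, differences in log2(RPM + 0.5) had a root mean square of 0.28, 0.29 and 0.28 within the pairs 1-2, 3-4 and 5-6. It was 0.50 between the pairs 1-2 and 3-4, 0.58 between the pairs 1-2 and 5-6, and 0.73 between the pairs 3-4 and 5-6. Reaggregates 3 and 4 thus lay further from 5 and 6 than 1 and 2 did. The 2 members of a pair differed by more than counting error, the only error that this measure covers. The mean chi-square of their counts was 6.48, 36.1 and 21.7 for genes from 200 to 1000 RPM, on values that are only partly whole reads. The mean of the pair 3-4 includes *Gnb1l*, *CT010467.3* and *mmu-mir-2133-2*, which were far higher in reaggregate 3 than in 4. *Gnb1l*, for example, was at 920 and 51.1 RPM. Such genes weigh heavily in a mean. Within the pairs, 187, 159 and 121 genes differed at least 2-fold. Flat culture 3 also stood apart, as described at the look-up in flat cultures.

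A gene was counted as higher or lower in reaggregates 1 to 4 where the means of log2(RPM + 0.5) differed by at least 1, a fold of 2, and the values of the groups did not overlap. On this scale folds of genes with low RPM are understated. By this rule 1232 genes (7.56%) were higher in reaggregates 1 to 4 and 179 (1.1%) were lower, so that 87.3% of these genes were higher. At least 4-fold differences were found for 170 higher and 13 lower genes. In 833 of the higher and 38 of the lower genes, the pairs 1-2 and 3-4 each differed from 5-6 by at least 2-fold. Without a fold threshold, 5571 genes lay above and 2771 below reaggregates 5 and 6 in every one of reaggregates 1 to 4. The excess of higher genes depended in part on the scaling, since after quantile normalization 785 genes were higher and 358 lower, or 68.7% higher. The median difference over all genes was 0.11 as deposited, −0.01 with median-ratio scaling and −0.06 after quantile normalization, and medians of gene lists are given beside the median of 0.11. A lower value of a gene in these bulk libraries can come from fewer cells of a type or from less RNA per cell, which cannot be told apart. Nearest to the threshold, *Hdac10* (1.001) and *Zxdc* (1.002) were just inside it and *Serac1* (0.999) and *Mill2* (0.999) just outside on the higher side, as log2 differences. On the lower side *Nqo1* (−1.004) and *Gprc2a-rs5* (−1.004) were just inside and *Pdpn* (−0.996) and *Rarres1* (−0.995) just outside.

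Non-coding RNAs were among the genes with the largest differences in favour of reaggregates 1 to 4. The largest difference was that of *Dnm3os*, a transcript from the strand opposite the dynamin 3 gene that serves as precursor of miRNAs and is required for skeletal growth. *Dnm3os* (chromosome 1, 164147754 to 164155681, plus strand, NCBI37/mm9) was at 68.3, 63.6, 250 and 239 RPM in reaggregates 1 to 4, against 3.98 and 4.10 RPM in 5 and 6. The pair 5-6 was near 4 RPM, the pair 1-2 was well above it and the pair 3-4 highest, with no overlap and a log2 difference of 4.81. The lincRNA *AL672003.2* (chromosome X, 47908921 to 47988498, minus strand) was at 103, 114, 114 and 107 RPM in reaggregates 1 to 4, against 7 and 5.46 RPM in 5 and 6. Reaggregates 1 to 4 were close to each other and far above 5 and 6, with a log2 difference of 4.04. *6720401G13Rik*, whose symbol the annotation gives to *AL672003.2*, was listed apart from it, at 13.5, 12.9, 17.6 and 11.9 RPM in reaggregates 1 to 4, against 0.597 and 0.916 RPM in 5 and 6, and since reads may have been divided between these entries each value is uncertain. *Ncrna00085* (chromosome 17, 17967683 to 17979973, plus strand), which overlaps the hairpin of miR-125a and which the annotation lists as protein-coding in spite of its name, was at 28.2, 29.2, 39.2 and 34.5 RPM in reaggregates 1 to 4, against 1.63 and 1.59 RPM in 5 and 6, a log2 difference of 3.97. Within each group its values were close, and no reaggregate of one group approached the other. *AL772135.1*, annotated as a lincRNA whose exons overlap *2700033N17Rik*, was at 26, 33, 39.9 and 40.3 RPM in reaggregates 1 to 4, against 2.81 and 2.71 RPM in 5 and 6, and *AC165361.1*, which had no match in the annotation, was at 19.2, 20.8, 27.6 and 22.2 RPM in reaggregates 1 to 4, against 1.41 and 1.18 RPM in 5 and 6. In both, the pair 3-4 held the highest value and the pair 5-6 lay below the other reaggregates. By annotation, 108 of 448 lincRNAs (24.1%) and 72 of 405 processed transcripts (17.8%) were higher in reaggregates 1 to 4, compared with 994 of 13271 protein-coding genes (7.49%) and 14 of 1572 pseudogenes (0.891%). The median log2 difference was 0.51 for lincRNAs, 0.41 for processed transcripts, 0.13 for protein-coding genes and −0.17 for pseudogenes. LincRNAs together took 0.405, 0.42, 0.45 and 0.424% of all RPM in reaggregates 1 to 4, against 0.311 and 0.313% in reaggregates 5 and 6.

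Among the 12 largest differences on the higher side were also 6 other genes annotated as protein-coding. *Slc26a7*, an anion exchanger, was at 4.75 and 3.54 RPM in the pair 1-2, 75.6 and 76.6 RPM in the pair 3-4 and 0.325 and 0.744 RPM in the pair 5-6. It was highest in the pair 3-4, low in the pair 1-2 and at or near the floor of 3 reads in the pair 5-6. *Leng8* (chromosome 7, 4088641 to 4099775, plus strand) was at 276, 313, 364 and 309 RPM in reaggregates 1 to 4, against 35.8 and 27.9 RPM in 5 and 6, a log2 difference of 3.29. *Rgs11*, which shortens G protein signals, was at 11.3, 12.3, 12.2 and 9.86 RPM in reaggregates 1 to 4, against 0.434 and 0.531 RPM in 5 and 6. The 4 higher values of each of these 2 genes lay within a narrow band that reaggregates 5 and 6 did not reach. *Lgals4*, a galectin, was at 9.63, 9.53, 11 and 8.33 RPM in reaggregates 1 to 4, against 0.325 and 0.531 RPM in 5 and 6. *Fmo1*, a flavin-containing monooxygenase, was at 14.2, 20.6, 33.6 and 37.1 RPM in reaggregates 1 to 4, against 1.41 and 2.34 RPM in 5 and 6. *Igf2*, an imprinted growth factor of the foetus, was at 19.1, 23.1, 29.3 and 27.4 RPM in reaggregates 1 to 4, against 2.28 and 2.12 RPM in 5 and 6, with *Igf2as* overlapping it. In *Fmo1* and *Igf2* the order of the pairs was 3-4, 1-2 and 5-6 from high to low, whereas in *Lgals4* the pairs 1-2 and 3-4 overlapped.

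**Figure D1:**
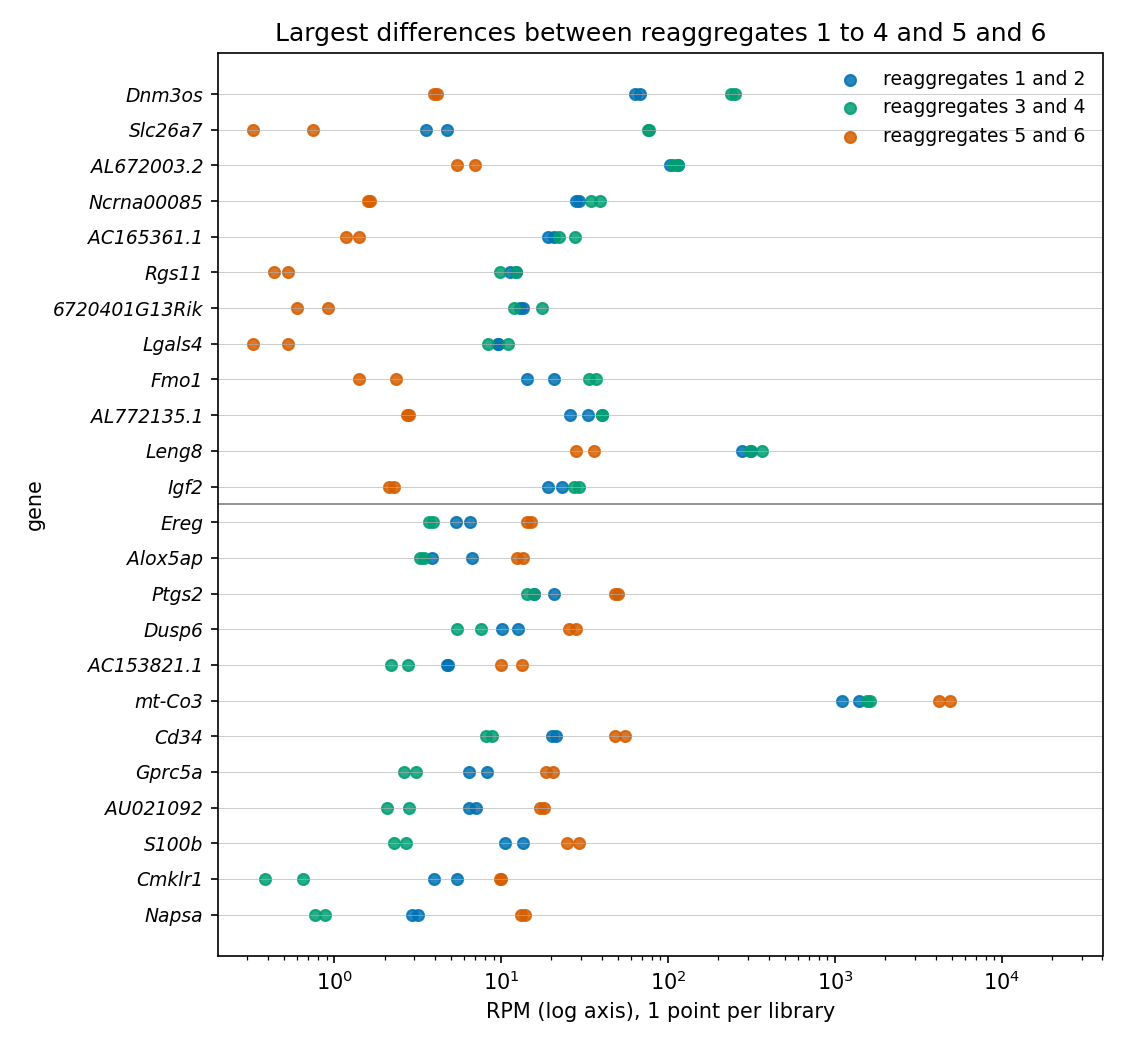
RPM in each of the 6 reaggregates, on a log axis, for the 12 genes furthest above and the 12 furthest under reaggregates 5 and 6 in reaggregates 1 to 4, among genes with a mean of at least 5 RPM, 1 point per library and 1 colour per pair. The points of the pair 5-6 lie left of all others above the grey line and right of all others under it, as the choice of these genes requires; *Slc26a7*, for example, reaches 75.6 and 76.6 RPM in the pair 3-4 against 0.325 and 0.744 RPM in the pair 5-6.

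miRNAs are cut from longer transcripts and bind messenger RNAs through their seed, bases 2 to 8. Several of the genes with the largest differences hold a miRNA hairpin within their span, so the mature sequences are given for the 3 such hosts with the largest differences. This was not a property of the higher genes as a whole, because 13 of the 1232 higher genes (1.06%), 1 of the 179 lower genes (0.559%) and 145 of all 16292 genes (0.89%) had a miRNA within them. The mature miRNAs themselves were not measured by these libraries. Sequences are from RefSeq on build GRCm38.p6, 5′ to 3′, with the seed in capitals. From *Dnm3os* come miR-214 (chr1:162223397-162223418 and chr1:162223438-162223459, plus strand) and miR-199a (chr1:162217844-162217866 and chr1:162217883-162217904, plus strand). From *Ncrna00085* comes miR-125a (chr17:17830817-17830840 and chr17:17830855-17830876, plus strand), and from *Igf2* comes miR-483 (chr7:142654968-142654989 and chr7:142654932-142654952, minus strand). The 8 seeds differ from each other.
mmu-miR-214-5p: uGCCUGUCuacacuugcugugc
mmu-miR-214-3p: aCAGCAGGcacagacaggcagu
mmu-miR-199a-5p: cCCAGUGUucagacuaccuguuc
mmu-miR-199a-3p: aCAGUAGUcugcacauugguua
mmu-miR-125a-5p: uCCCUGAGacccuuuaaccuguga
mmu-miR-125a-3p: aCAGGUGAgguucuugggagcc
mmu-miR-483-3p: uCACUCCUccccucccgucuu
mmu-miR-483-5p: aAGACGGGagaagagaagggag

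The genes that were lower in reaggregates 1 to 4 included surface proteins, signalling enzymes and a mitochondrial transcript. *Napsa*, an aspartic protease known from lung and kidney, had the largest difference, at 2.91 and 3.17 RPM in the pair 1-2, 0.883 and 0.768 RPM in the pair 3-4 and 13.1 and 13.9 RPM in the pair 5-6, with *Gm15396* overlapping it. *Cmklr1*, the receptor of the chemoattractant chemerin, was at 3.98 and 5.45 RPM in the pair 1-2, 0.653 and 0.384 RPM in the pair 3-4 and 9.98 and 9.77 RPM in the pair 5-6. *S100b*, a calcium-binding protein, was at 10.6 and 13.5 RPM in the pair 1-2, 2.29 and 2.69 RPM in the pair 3-4 and 24.8 and 29.4 RPM in the pair 5-6. In these 3 genes the pair 5-6 was highest, the pair 1-2 was intermediate and the pair 3-4 lowest, without overlap. *Cd34* (chromosome 1, 196765015 to 196787486, plus strand), a sialomucin of blood progenitors and vessels that also marks some stromal cells, was at 21.2, 20.2, 8.76 and 8.15 RPM in reaggregates 1 to 4, against 48.2 and 54.9 RPM in 5 and 6, a log2 difference of −1.92. Its antisense neighbour *Gm16897* overlaps it, and reads of the 2 strands could not be separated. *AU021092* was at 6.41, 7.08, 2.07 and 2.82 RPM in reaggregates 1 to 4, against 18.1 and 17 RPM in 5 and 6. *Gprc5a*, a receptor induced by retinoic acid, was at 8.21, 6.40, 2.61 and 3.07 RPM in reaggregates 1 to 4, against 20.3 and 18.5 RPM in 5 and 6. For *Cd34*, *AU021092* and *Gprc5a* the order was again 5-6, 1-2 and 3-4. *Dusp6*, a phosphatase that inactivates ERK kinases, was at 10.1, 12.6, 5.44 and 7.62 RPM in reaggregates 1 to 4, against 28.2 and 25.6 RPM in 5 and 6. *Ereg*, a ligand of the EGF receptor, was at 5.39, 6.54, 3.92 and 3.71 RPM in reaggregates 1 to 4, against 14.2 and 15.1 RPM in 5 and 6. *AC153821.1*, not matched in the annotation, was at 4.78, 4.74, 2.18 and 2.75 RPM in reaggregates 1 to 4, against 10 and 13.4 RPM in 5 and 6. Each of these 3 genes had its lowest values in the pair 3-4 and its highest in the pair 5-6. *Ptgs2* and *Alox5ap*, of eicosanoid synthesis, were also lower. *Ptgs2*, the inducible cyclooxygenase, was at 20.7, 15.7, 14.3 and 15.7 RPM in reaggregates 1 to 4, against 49.8 and 48.2 RPM in 5 and 6, and *Alox5ap*, which presents arachidonate to lipoxygenase, was at 3.83, 6.66, 3.26 and 3.45 RPM in reaggregates 1 to 4, against 12.4 and 13.6 RPM in 5 and 6. The pairs 1-2 and 3-4 lay close together for both and the pair 5-6 stood above them. Of 13 prostaglandin genes *Ptgs2* was the 1 lower gene and 0 were higher, beside 1.1% lower and 7.56% higher of all genes. Their median log2 difference was −0.37, beside 0.11 for all genes, and nothing is read from this count.

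Some genes that control splicing were higher in reaggregates 1 to 4, most of the CLK kinases and cyclins L and fewer members of the other lists. Splicing removes introns in the nucleus, CLK kinases and their partners, the L-type cyclins, control it, and the SR proteins that bind exons are their substrates. These lists, and those of hnRNP, core spliceosome and zinc finger genes, were added after the values were seen, so their counts carry no weight beyond description. All of these counts stand beside 7.56% higher and 1.1% lower of all genes. Nothing is read from the counts of the hnRNP and core spliceosome lists. Of the 6 CLK kinases and cyclins L, 5 were higher in reaggregates 1 to 4 (*Clk1*, *Clk2*, *Clk3*, *Clk4* and *Ccnl2*) and 0 lower, with a median of 1.2 against 0.11 for all genes. *Ccnl2* was at 252, 300, 187 and 165 RPM in reaggregates 1 to 4, against 51.1 and 44.9 RPM in 5 and 6. *Clk4* was at 71.6, 77.9, 98.2 and 94.2 RPM in reaggregates 1 to 4, against 34.9 and 34.1 RPM in 5 and 6, and *Clk2* at 42.7, 46, 43.3 and 39.3 RPM in reaggregates 1 to 4, against 15.9 and 17.4 RPM in 5 and 6. All 4 values of each gene in reaggregates 1 to 4 exceeded both values in reaggregates 5 and 6, while the pairs 1-2 and 3-4 took different orders in *Ccnl2* and *Clk4*. Of 20 SR and SR-related proteins 9 were higher and 0 lower, with a median of 0.96. *Sfrs18* was at 158, 175, 152 and 125 RPM in reaggregates 1 to 4, against 29.8 and 29.6 RPM in 5 and 6. *Sfrs16* was at 43.2, 47.8, 52.1 and 43.3 RPM in reaggregates 1 to 4, against 11.7 and 11.3 RPM in 5 and 6. *Srrm3*, a splicing factor best known from neurons, was at 19.8, 24.2, 32.1 and 32.9 RPM in reaggregates 1 to 4, against 3.25 and 3.61 RPM in 5 and 6. Reaggregates 5 and 6 were the lowest of the 6 for each of these genes. Summed over the SR list, reaggregates 1 to 4 had 2800, 3010, 2900 and 2710 RPM, and reaggregates 5 and 6 had 1430 and 1440 RPM. Of the 19 hnRNP genes 2 were higher, *Hnrnph1* at 343, 383, 404 and 366 RPM in reaggregates 1 to 4, against 158 and 168 RPM in 5 and 6 and *Hnrnph3* at 27.1, 33.2, 26.7 and 21 RPM in reaggregates 1 to 4, against 10.7 and 12.2 RPM in 5 and 6, and the list median was 0.32. *Hnrpdl*, at 137, 142, 136 and 138 RPM in reaggregates 1 to 4, against 67.9 and 73.3 RPM in 5 and 6, was just under the fold threshold. The 44 genes of the core spliceosome had 4 higher members (*Prpf38b*, *Prpf39*, *Prpf40b* and *U2af1*) and 0 lower. Their median was 0.03, which became −0.09 with median-ratio scaling. Among them *Prpf40b* was at 77, 89.5, 78 and 69 RPM in reaggregates 1 to 4, against 25.3 and 20.7 RPM in 5 and 6 and *U2af1*, which recognises the end of the intron, at 58.8, 63.3, 55 and 49 RPM in reaggregates 1 to 4, against 17.9 and 20.2 RPM in 5 and 6. These values did not overlap between the groups, in contrast to the near-zero median of their list. Of 278 genes named Zfp, 26 were higher and 0 lower, beside 7.56% and 1.1% of all genes, and their median was 0.47. *Zfp57*, which maintains imprints, was at 20.1 and 19.3 RPM in the pair 1-2, 64.5 and 53.9 RPM in the pair 3-4 and 5.75 and 4.04 RPM in the pair 5-6. *Zfp692* was at 22.3, 23.4, 23.4 and 20 RPM in reaggregates 1 to 4, against 4.77 and 3.29 RPM in 5 and 6, and *Zfp329* at 22.7, 27.4, 34.2 and 31 RPM in reaggregates 1 to 4, against 5.42 and 5.31 RPM in 5 and 6. The pair 5-6 was lowest in all 3 genes, and the pair 3-4 was separate from the pair 1-2 in *Zfp57*.

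Several mitochondrial transcripts were lower in reaggregates 1 to 4. Mitochondrial DNA encodes core subunits of the respiratory chain, whereas the remaining subunits and the ribosomal proteins come from the nucleus. The mitochondrial genome took 1.69, 1.47, 2.04 and 1.97% of all RPM in reaggregates 1 to 4, against 3.33 and 3.28% in reaggregates 5 and 6. Each of reaggregates 1 to 4 was under the pair 5-6. Of its 14 protein-coding entries, 5 were lower (*mt-Co3*, *mt-Atp8*, *mt-Nd3* and *mt-Atp6*, which is listed under 2 identifiers) and 0 higher, with a median of −0.77. This count and those of the respiratory chain and ribosomal protein lists stand beside 7.56% higher and 1.1% lower of all genes. *mt-Co3*, a subunit of cytochrome c oxidase, was at 1390, 1100, 1560 and 1610 RPM in reaggregates 1 to 4, against 4190 and 4900 RPM in 5 and 6, a log2 difference of −1.69. *mt-Atp8* was at 321, 279, 338 and 367 RPM in reaggregates 1 to 4, against 774 and 1080 RPM in 5 and 6. Exons of *mt-Co3* and *mt-Atp8* overlap *mt-Atp6*, so their reads may have been shared. The nuclear genes of the respiratory chain had 1 higher member (*Atp5s*) and 0 lower of 74, and a median of −0.15. Of the 84 ribosomal protein genes 0 were higher and 0 lower, and their median was −0.22, with −0.36 in the pair 1-2 and −0.07 in the pair 3-4, each against 5-6. Among them *Rps6* was at 177, 171, 188 and 193 RPM in reaggregates 1 to 4, against 285 and 282 RPM in 5 and 6, with both values in the pair 5-6 above the other 4 and a difference under 2-fold. Ribosomal proteins took 1.52, 1.51, 1.87 and 1.92% of all RPM in reaggregates 1 to 4, against 2.05 and 2.03% in reaggregates 5 and 6. Scaled to the reads outside the mitochondrial genome, a setting chosen after the data were seen, 1199 genes were higher and 193 lower. The shares of mitochondrial reads and of lincRNAs and the medians of the CLK and SR lists thus differed with the same split. The core spliceosome list had a median of 0.03 beside 0.11 for all genes. The part of RNA quality in the split was not tested.

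Several contractile genes were higher in reaggregates 1 to 4, and for some of them the pair 3-4 was highest. Smooth muscle cells and pericytes hold actin isoforms and actin-binding proteins with which they contract, and stromal cells make them when they become myofibroblasts. Of 16 smooth muscle and pericyte genes measured 9 were higher and 0 lower, with a median of 1.08 that ran from 0.48 without a filter on low values to 1.38 in the pair 3-4 alone. This count and those of YAP targets and of integrins and laminins stand beside 7.56% higher and 1.1% lower of all genes. Nothing is read from the latter counts. The list summed to 2380, 2370, 3010 and 2990 RPM in reaggregates 1 to 4 and to 1700 and 1740 RPM in reaggregates 5 and 6, with *Cald1* its most abundant gene. *Actg2*, the enteric smooth muscle actin, was at 6.29 and 5.72 RPM in the pair 1-2, 16.8 and 16.4 RPM in the pair 3-4 and 0.651 and 1.49 RPM in the pair 5-6. *Synpo2*, an actin-bundling protein, was at 5 and 4.91 RPM in the pair 1-2, 14.9 and 16.9 RPM in the pair 3-4 and 0.976 and 0.926 RPM in the pair 5-6. *Tagln*, which binds actin and whose exons overlap *Pcsk7*, was at 15.6 and 21.6 RPM in the pair 1-2, 46.6 and 46.3 RPM in the pair 3-4 and 4.01 and 6.63 RPM in the pair 5-6. In these 3 genes the pairs formed 3 separate levels, 5-6 lowest and 3-4 highest. Between the pairs 1-2 and 3-4, 5 genes of the list were lower in 1-2 (*Actg2*, *Tagln*, *Synpo2*, *Tpm1* and *Acta2*) and 3 were higher (*Des*, *Mylk* and *Cspg4*). In that comparison 1.47% of all genes were lower in 1-2 and 3.59% were higher. Of 25 genes of the actin cytoskeleton 2 were higher and 0 lower, beside 7.56% and 1.1% of all genes, with a median of 0.21 beside 0.11. *Vcl*, vinculin of focal adhesions, was at 621, 644, 1050 and 1120 RPM in reaggregates 1 to 4, against 379 and 397 RPM in 5 and 6, and *Pdlim7* at 88.1, 91.6, 129 and 115 RPM in reaggregates 1 to 4, against 45.3 and 40.1 RPM in 5 and 6. Reaggregates 5 and 6 were lowest for both. *F3*, tissue factor and the 1 higher gene of 18 YAP targets, was at 77.5 and 82 RPM in the pair 1-2, 200 and 193 RPM in the pair 3-4 and 45.7 and 47.2 RPM in the pair 5-6. *Itga11*, a collagen-binding integrin, was at 59.9, 63.3, 97.5 and 98.8 RPM in reaggregates 1 to 4, against 29.6 and 21.8 RPM in 5 and 6, and *Itga6*, which binds laminin, went the other way, at 46.1 and 50.8 RPM in the pair 1-2, 9.04 and 10.1 RPM in the pair 3-4 and 81.6 and 86.5 RPM in the pair 5-6. These were the 1 higher and the 1 lower gene of 24 integrins and laminins, and their groups did not overlap.

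Single genes of the extracellular matrix were higher or lower in reaggregates 1 to 4, and the counts of its lists stand beside 7.56% higher and 1.1% lower of all genes. Collagens form its fibres, matricellular proteins modify how cells attach to it, and metalloproteinases cut it. Of 23 collagen genes 2 were higher, 1 was lower, and the median was 0.39. *Col27a1*, a fibrillar collagen of cartilage, was at 14.4, 14.8, 13.1 and 10.4 RPM in reaggregates 1 to 4, against 1.63 and 1.70 RPM in 5 and 6, and *Col5a1*, which starts collagen fibrils, at 1350, 1460, 1740 and 1800 RPM in reaggregates 1 to 4, against 805 and 725 RPM in 5 and 6. *Col15a1*, of basement membranes, was at 7.44, 4.63, 2.50 and 2.79 RPM in reaggregates 1 to 4, against 8.89 and 10.6 RPM in 5 and 6. Values did not overlap in any of them, and for *Col27a1* the pair 5-6 was below 2 RPM. The collagens together reached 31500, 32400, 31400 and 31800 RPM in reaggregates 1 to 4, against 26900 and 25200 RPM in reaggregates 5 and 6. Matrix proteases and their inhibitors had 4 higher members of 21 (*Mmp9*, *Mmp11*, *Mmp13* and *Adamts9*), 0 lower, and a median of 0.18. *Mmp13*, a collagenase of bone and cartilage, was at 120, 133, 111 and 90.9 RPM in reaggregates 1 to 4, against 32.8 and 34.2 RPM in 5 and 6. *Mmp9*, a gelatinase, was at 23.5, 31.7, 40.4 and 30 RPM in reaggregates 1 to 4, against 12.8 and 11.3 RPM in 5 and 6. *Adamts9* was at 4.52 and 3.46 RPM in the pair 1-2, 11.3 and 9.95 RPM in the pair 3-4 and 1.84 and 1.91 RPM in the pair 5-6, and 2 long RNAs overlap it. All 4 libraries of reaggregates 1 to 4 exceeded the pair 5-6 in these 3 genes, and in *Adamts9* the pair 3-4 was above the pair 1-2. Of 14 matricellular genes 2 were higher (*Postn* and *Thbs1*) and 2 lower (*Spp1* and *Tnc*). *Postn*, periostin, was at 862, 780, 964 and 934 RPM in reaggregates 1 to 4, against 322 and 341 RPM in 5 and 6. *Spp1*, osteopontin, was at 2930 and 2760 RPM in the pair 1-2, 1370 and 1480 RPM in the pair 3-4 and 5130 and 5400 RPM in the pair 5-6. *Postn* thus separated 1 to 4 from 5 and 6 with the pairs 1-2 and 3-4 close, whereas *Spp1* took 3 levels. *Bmp1*, the protease that trims procollagen, was at 523, 590, 617 and 570 RPM in reaggregates 1 to 4, against 263 and 242 RPM in 5 and 6, the 1 higher and with 0 lower of 24 BMP pathway genes, whose median was 0.09. *Comp* and *Col10a1* were the 2 higher and *Spp1* the 1 lower of 17 bone and cartilage genes, *Mfap4* was the 1 higher of 19 elastic fibre genes, and 0 of 18 proteoglycans were higher or lower. *Mcam* was the 1 higher gene of 16 measured genes that the study names, for OP9 or as secreted candidates from the embryo, and 0 were lower. It was at 5.39, 4.77, 6.97 and 7.43 RPM in reaggregates 1 to 4, against 1.84 and 1.59 RPM in 5 and 6, with reaggregates 5 and 6 lowest.

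Single genes for signals to and from blood cells differed between the groups. The counts of the lists that follow stand beside 7.56% higher and 1.1% lower of all genes, and nothing is read from them. CXCL12 holds haematopoietic stem cells in their niche, thrombopoietin maintains them, and EBF3 is a transcription factor of the marrow stroma that produces CXCL12. Of 16 niche factors 3 were higher (*Cxcl12*, *Ebf3* and *Thpo*), 1 was lower (*Spp1*), and the median was −0.18. *Cxcl12* was at 889 and 898 RPM in the pair 1-2, 2220 and 2300 RPM in the pair 3-4 and 546 and 573 RPM in the pair 5-6, and *Ebf3* at 54.6 and 58.8 RPM in the pair 1-2, 145 and 124 RPM in the pair 3-4 and 21.2 and 20.1 RPM in the pair 5-6. Both took the same order of pairs, 5-6 lowest and 3-4 highest, without overlap. Among 23 chemokine and inflammation genes 4 were higher (*Cxcl5*, *Cxcl12*, *Nfkbiz* and *Tnfaip3*) and 2 were lower (*Ccl9* and *Ptgs2*), with a median of −0.30 that was 0.27 in genes with a mean of at least 5 RPM. *Ccl9* was at 40 and 38.9 RPM in the pair 1-2, 15.6 and 17.3 RPM in the pair 3-4 and 53.4 and 84.3 RPM in the pair 5-6, with both values of the pair 3-4 lowest. Of 18 genes of the receptors and kinases around IL-3 3 were higher, *Lifr* and *Osmr*, receptors of the IL-6 family, and the kinase *Pim2*, and 0 were lower. *Lifr* was at 16.2, 18.2, 13.2 and 14.2 RPM in reaggregates 1 to 4, against 3.58 and 3.61 RPM in 5 and 6. *Osmr* was at 53 and 57.6 RPM in the pair 1-2, 106 and 114 RPM in the pair 3-4 and 29.6 and 36.7 RPM in the pair 5-6, and *Pim2* at 10.9, 10.5, 9.66 and 8.19 RPM in reaggregates 1 to 4, against 3.26 and 2.97 RPM in 5 and 6. Reaggregates with and without IL-3 lay side by side within each pair for these genes. *Hgf*, a growth factor that stroma makes for epithelia, was at 29.1 and 32 RPM in the pair 1-2, 97 and 107 RPM in the pair 3-4 and 16.3 and 15.4 RPM in the pair 5-6. *Fgfr3* was at 6.41, 6.13, 8.06 and 8.96 RPM in reaggregates 1 to 4, against 2.82 and 1.81 RPM in 5 and 6, and with *Hgf* it made up the 2 higher of 32 growth factor and receptor genes, of which *Ereg* and *Nrp2* were the 2 lower. *C4a*, at 11.5, 11.4, 13.9 and 10.8 RPM in reaggregates 1 to 4, against 2.05 and 2 RPM in 5 and 6, and *C4b*, at 36.2, 40.2, 76.7 and 63.4 RPM in reaggregates 1 to 4, against 11.5 and 11 RPM in 5 and 6, were the 2 higher of 9 complement genes, and as near-identical copies they may share reads. *Rspo2*, which amplifies Wnt signals, was at 63.8, 52, 91.1 and 104 RPM in reaggregates 1 to 4, against 27 and 29.5 RPM in 5 and 6. *Sfrp4*, a secreted Wnt inhibitor, was at 9.11, 8.99, 7.84 and 7.43 RPM in reaggregates 1 to 4, against 2.39 and 4.78 RPM in 5 and 6, and with *Rspo2* and *Wnt10b* it was among the 3 higher and 0 lower of 22 Wnt genes. *Tgfbi*, a matrix protein induced by TGF-β, was at 20.7 and 19.6 RPM in the pair 1-2, 1.85 and 1.41 RPM in the pair 3-4 and 29.8 and 30 RPM in the pair 5-6, the 1 lower of 16 TGF-β genes. *Tgfbi* was under 2 RPM in the pair 3-4 and at 19.6 RPM or more in the other pairs.

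Some genes of the response to low oxygen and of the circadian clock were also higher in reaggregates 1 to 4, as were 7.56% of all genes, with 1.1% lower. Low oxygen stabilises a transcription factor that switches on glycolysis, angiogenesis and histone demethylases, and the clock is a loop of activators and repressors. Of 32 hypoxia and glycolysis genes 6 were higher and 0 lower, with a median of 0.11, which is also that of all genes and became −0.02 with median-ratio scaling. *Hk2*, the first enzyme of glycolysis, was at 56.8, 47.1, 76.3 and 79.4 RPM in reaggregates 1 to 4, against 20.9 and 21.4 RPM in 5 and 6. *Ankrd37* was at 10, 8.63, 13.4 and 10 RPM in reaggregates 1 to 4, against 1.87 and 3.55 RPM in 5 and 6, and its exons overlap *Lrp2bp* and *Ufsp2*. *Kdm3a*, a histone demethylase, was at 137, 137, 154 and 146 RPM in reaggregates 1 to 4, against 59.8 and 65.4 RPM in 5 and 6. In each of them reaggregates 5 and 6 were lowest. Of 17 clock genes 4 were higher (*Arntl*, *Npas2*, *Cry2* and *Rora*) and 1 was lower, with a median of 0.39. *Arntl*, the activator of the loop, was at 46.9, 46.4, 41.8 and 49.8 RPM in reaggregates 1 to 4, against 17.5 and 20 RPM in 5 and 6. *Cry2*, a repressor, was at 61.9, 50.3, 73.2 and 72.3 RPM in reaggregates 1 to 4, against 28.2 and 25.5 RPM in 5 and 6. *Rora*, which drives *Arntl*, was at 33.4, 36.1, 37 and 46.1 RPM in reaggregates 1 to 4, against 12.4 and 13 RPM in 5 and 6. For these 3 genes reaggregates 5 and 6 were lowest.

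The promoters of these lists were searched for 3 motifs on both strands, chosen after the values were seen, in RefSeq promoters of build GRCm38.p6 from 250 bases before to 50 bases after the start. The motifs were ACGTG (reverse complement CACGT), which is the core that hypoxia-inducible factors recognise, the E-box CACGTG, which contains it, and the CArG box of serum response factor. ACGTG was found in 27 of 47 promoters (57.4%) of the hypoxia and glycolysis list, in 10 of 20 promoters (50%) of the clock list, in 3 of 17 promoters (17.6%) of the smooth muscle list and in 6447 of 32851 promoters (19.6%) in all. It was present for 5 of the 6 higher hypoxia and glycolysis genes, and in 24 of the 32 genes (75.0%) of that list, most of which were neither higher nor lower. CACGTG was found in 6.38% of the hypoxia and glycolysis promoters, 25.0% of the clock promoters, 0.0% of the smooth muscle promoters and 7.15% of all promoters. The CArG box was found in 1 promoter of the hypoxia and glycolysis list (2.13%), in 0 of the clock list (0.0%), in 1 of the smooth muscle list (5.88%), that of *Myl9*, and in 535 of all promoters (1.63%). Of the 9 higher smooth muscle genes, 7 had a promoter among those searched. *Actg2* and *Tagln* had none there, so nothing is known of their motifs from this search. A match says that these letters are present and no more. Shown are the promoters of the 2 higher genes with 2 matches to ACGTG each, with the matches in capitals, at chr8:45999801-46000100 for *Ankrd37* and chr6:82774405-82774704 for *Hk2*, both on the minus strand.
Ankrd37: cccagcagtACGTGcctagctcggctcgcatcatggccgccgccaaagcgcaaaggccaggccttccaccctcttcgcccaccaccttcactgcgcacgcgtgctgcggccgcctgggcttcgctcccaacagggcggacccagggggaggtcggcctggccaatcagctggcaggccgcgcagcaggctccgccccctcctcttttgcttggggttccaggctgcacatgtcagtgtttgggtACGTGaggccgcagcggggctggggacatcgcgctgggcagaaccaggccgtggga
Hk2: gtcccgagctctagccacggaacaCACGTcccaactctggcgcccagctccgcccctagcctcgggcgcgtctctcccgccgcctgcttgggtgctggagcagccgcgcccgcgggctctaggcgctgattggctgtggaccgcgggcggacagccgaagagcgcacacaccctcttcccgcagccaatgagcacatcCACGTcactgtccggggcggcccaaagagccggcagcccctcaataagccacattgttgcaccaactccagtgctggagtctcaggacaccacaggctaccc

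**Figure D2:**
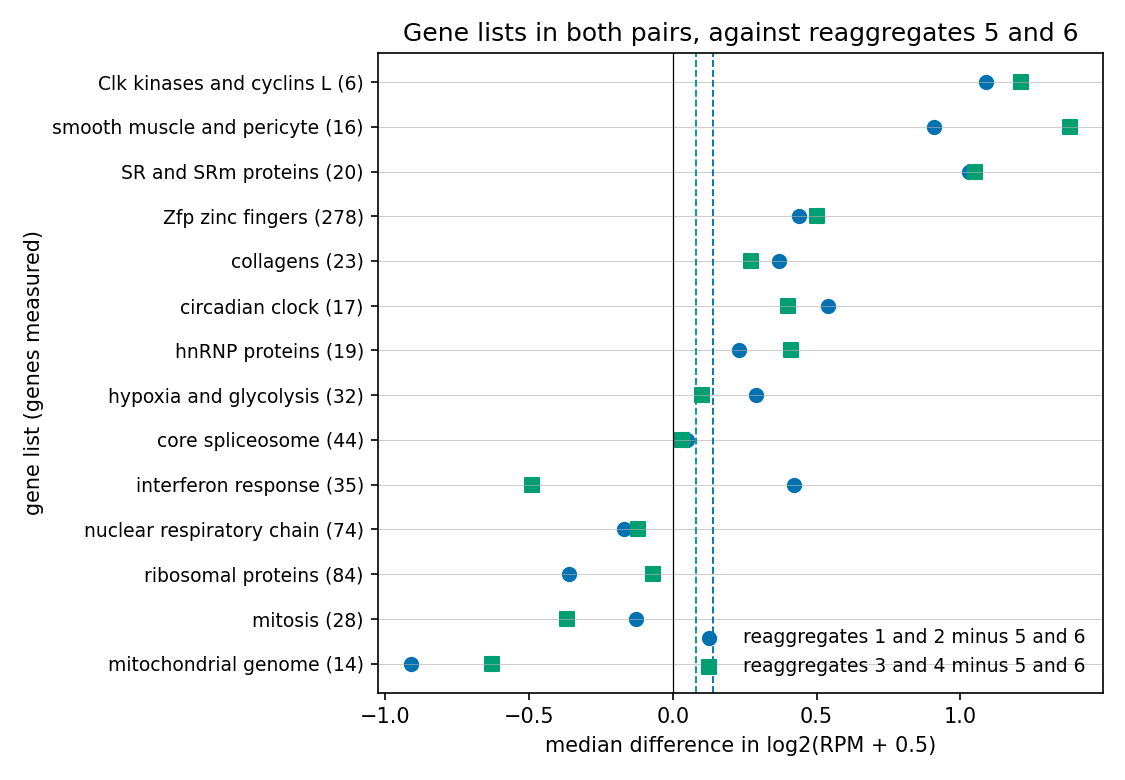
Median difference in log2(RPM + 0.5) over the measured genes of 14 lists, for the pair 1-2 (circles) and the pair 3-4 (squares), each against the pair 5-6, with the medians over all genes as dashed lines (0.14 and 0.08). Splicing kinases, SR proteins and smooth muscle genes lie to the right in both pairs, and the mitochondrial genome lies to the left at −0.91 and −0.63. The interferon response is at 0.42 in the pair 1-2 and −0.49 in the pair 3-4. Under median-ratio scaling the medians of hypoxia, core spliceosome and interferon response genes change sign for reaggregates 1 to 4 together.

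The counts of the remaining lists follow, again beside 7.56% higher and 1.1% lower of all genes. Of 28 immediate early genes 1 was higher (*Nr4a2*) and 1 lower (*Dusp6*), of 10 cyclins D and CDK inhibitors 1 was higher (*Cdkn1b*) and 1 lower (*Cdkn2b*), and 0 of 26 replication genes and 0 of 28 mitosis genes were either. *Cdkn1b*, which halts the cycle, was at 87.5 and 94.4 RPM in the pair 1-2, 161 and 162 RPM in the pair 3-4 and 53.4 and 64.1 RPM in the pair 5-6, and *Cdkn2b*, which blocks kinases of cyclin D, at 120 and 127 RPM in the pair 1-2, 66.4 and 67.7 RPM in the pair 3-4 and 192 and 192 RPM in the pair 5-6. Of 25 antioxidant genes *Gclc* was higher and *Mt2* and *Nqo1* were lower. *Mt2*, a metallothionein, was at 64.1 and 59.8 RPM in the pair 1-2, 26.9 and 25 RPM in the pair 3-4 and 97.2 and 96.4 RPM in the pair 5-6. These inhibitors and *Mt2* took separate levels by pair. Counts of 0 higher and 0 lower were also found for 22 cholesterol, 12 fatty acid, 8 hedgehog, 18 chaperone, 15 heat shock, 25 ribosome biogenesis, 28 histone, 29 lysosome and 6 peptidase genes, and for the 2 proliferins measured. Of 14 adipogenic genes *Lpl* was higher, of 24 genes of the amino acid response *Slc7a3*, of 18 p53 targets *Fas* and *Bbc3*, of 14 Notch genes *Jag2* and *Dll1*, of 11 Igf and imprinted genes *Igf2*, and 0 of these lists' genes were lower. *Hoxa3* was the 1 higher of 11 Hox genes, *Runx1t1* of 7 Runx genes, *Tbx2* and *Osr2* the 2 of 16 mesenchymal factors, and *Pcdhb5* and *Pcdhb12* the 2 of 22 clustered protocadherins, which may share reads. *Runx1t1*, a corepressor, was at 4.38 and 5.45 RPM in the pair 1-2, 12.4 and 10.6 RPM in the pair 3-4 and 0.651 and 0.425 RPM in the pair 5-6, and *Osr2*, a factor of limb and palate mesenchyme, at 14.5, 14.2, 26 and 22.7 RPM in reaggregates 1 to 4, against 6.83 and 5.10 RPM in 5 and 6. Of 16 retinoid and steroid genes 3 were higher (*Rbp4*, *Zbtb16* and *Aldh1a1*) and 2 lower, among them *Hsd11b1*. *Hsd11b1*, which activates glucocorticoids, was at 36.4, 34.3, 25.9 and 28.8 RPM in reaggregates 1 to 4, against 58.8 and 69 RPM in 5 and 6, with the pair 5-6 highest. Of the marker lists, the endothelial list had 1 lower gene (*Vwf*) and the other lists outside stroma had 0 higher and 0 lower.

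The pairs 1-2 and 3-4 were also compared apart, because the split joins them. Against the pair 5-6, 1236 genes (7.59%) were higher and 52 (0.319%) lower in the pair 1-2, and 1532 (9.4%) were higher and 589 (3.62%) lower in the pair 3-4. The 2 counts share the pair 5-6. After quantile normalization they were 698 and 184 (79.1% higher, from 96.0%) for the pair 1-2 and 1159 and 804 (59.0% higher, from 72.2%) for the pair 3-4. Between the pairs 1-2 and 3-4, 585 genes (3.59%) were higher in 1-2 and 239 (1.47%) were lower. Interferon induces antiviral proteins such as the IFIT family, and of 35 such genes 15 were higher in the pair 1-2 than in 3-4 and 0 lower, with a median of 0.8 beside 0.05 for all genes. Between reaggregates 1 to 4 and 5 and 6, the same list had 1 higher gene (*Psmb8*), 1 lower gene (*Ifit1*) and a median of 0.02, which became −0.05 with median-ratio scaling. *Ifit1* was at 6.53 and 5.66 RPM in the pair 1-2, 1.09 and 1.05 RPM in the pair 3-4 and 10.8 and 8.98 RPM in the pair 5-6, and *Gbp2*, a guanylate-binding protein, at 10.1 and 6.92 RPM in the pair 1-2, 2.61 and 3.07 RPM in the pair 3-4 and 10.4 and 8.89 RPM in the pair 5-6. Both were low in the pair 3-4, with the pairs 1-2 and 5-6 above it. The list summed to 1730, 1670, 1590 and 1590 RPM in reaggregates 1 to 4 and to 1570 and 1740 RPM in reaggregates 5 and 6, most of it *B2m*. Of 18 proteoglycans 5 were higher in the pair 1-2 (*Gpc4*, *Omd*, *Vcan*, *Aspn* and *Podn*) and 2 in the pair 3-4 (*Dcn* and *Lum*). *Dcn*, decorin, which binds collagen and growth factors, was at 56.3 and 47.3 RPM in the pair 1-2, 417 and 478 RPM in the pair 3-4 and 87.6 and 87.2 RPM in the pair 5-6, and *Lum*, lumican, at 4.49 and 6.81 RPM in the pair 1-2, 30.2 and 30 RPM in the pair 3-4 and 7.38 and 8.18 RPM in the pair 5-6. *Gpc4*, a glypican of the cell surface, was at 71.2 and 74.9 RPM in the pair 1-2, 11.9 and 11.1 RPM in the pair 3-4 and 49.4 and 53.4 RPM in the pair 5-6. Decorin and lumican were highest in the pair 3-4 and glypican lowest there, while the pairs 1-2 and 5-6 lay closer to each other. Among histone genes 5 of 28 were higher in the pair 1-2, and among heat shock genes 4 of 15 were (*Cryab*, *Hspb1*, *Hspa1a* and *Hspa1b*, near-identical copies that may share reads), and 0 lower in each.

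Several of the largest differences between the pairs 1-2 and 3-4 were in genes that were nearly silent in one of them. *Gm5662* was at 52.8 and 52.2 RPM in the pair 1-2, 0.793 and 1.27 RPM in the pair 3-4 and 57 and 88.3 RPM in the pair 5-6, and *CT954323.2*, which like it lies on chromosome 12 and is a related gene that may share its reads, at 38.1 and 42.9 RPM in the pair 1-2, 1.67 and 1.84 RPM in the pair 3-4 and 47.1 and 72.4 RPM in the pair 5-6. The pair 3-4 was under 2 RPM for both genes and the other reaggregates were far above it. *Tll1*, a protease related to BMP1, was at 9.11 and 8.99 RPM in the pair 1-2, 0 and 0 RPM in the pair 3-4 and 18 and 15.5 RPM in the pair 5-6, so that no read was assigned to it in reaggregates 3 and 4. *Chn1*, which switches off Rac, was at 11.9 and 13.3 RPM in the pair 1-2, 0.388 and 0.257 RPM in the pair 3-4 and 5.96 and 7.17 RPM in the pair 5-6, where reaggregate 4 was under its floor of 0.384 RPM. On the other side, *Cyp7b1*, a hydroxylase of oxysterols, was at 0.770 and 0.545 RPM in the pair 1-2, 19.8 and 22.5 RPM in the pair 3-4 and 0.217 and 0.106 RPM in the pair 5-6. *Fam5c* was at 1.79 and 1.23 RPM in the pair 1-2, 18.8 and 19.4 RPM in the pair 3-4 and 0.325 and 0.212 RPM in the pair 5-6, and *Stmn3*, which destabilises microtubules, at 1.80 and 1.23 RPM in the pair 1-2, 17.5 and 16.9 RPM in the pair 3-4 and 1.08 and 1.27 RPM in the pair 5-6. The pair 3-4 was alone in its high values of these genes, and with *Slc26a7* and *Dcn* they made up the 5 largest differences in that direction.

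Cell source was compared in the flat cultures, which share no library with the split. Limma on log2(RPM + 0.5) with a mean-variance trend called 309 of 16933 genes (1.82%) higher and 656 (3.87%) lower in the de Bruijn cultures 2 and 4 than in cultures 1 and 3 (at least 2-fold, Benjamini-Hochberg adjusted p of at most 0.05, n = 2 and 2). After quantile normalization 486 were higher and 600 lower, and leaving out any 1 of the flat cultures gave 0 calls, with between 1784 and 4137 genes at an unadjusted p under 0.05. Of the 179 genes lower in reaggregates 1 to 4 than in 5 and 6, 74 were called lower in the de Bruijn cultures, which is 41.3% of the 179 and 11.3% of the 656, and 6 were called higher. Of the 1232 higher genes, 35 (2.84%, and 5.34% of the 656) were called lower and 38 (3.08%, and 12.3% of the 309) higher. Among all 16292 genes of the split, 639 (3.92%) were called lower and 211 (1.3%) higher. The median log2 difference between the flat cultures, de Bruijn minus the others, was −1.53 over the 179 lower genes and −0.62 over the 1232 higher genes, with −0.18 over all genes. Against flat culture 1 alone, without flat culture 3, these medians were −1.83, −0.14 and −0.14. Summed Y-linked genes did not follow the split. They were at most 0.218 RPM in all 6 reaggregates and at most 0.12 RPM in flat cultures 1 and 3. In flat cultures 2 and 4 they stood at 107 and 124 RPM. The paper states that variance from the OP9 source equalled that from passage number. The part of cell source in the split was not tested. Genes with their lowest or their highest reaggregate values in the pair 3-4 gave examples. *Itga6* stood at 1.55 and 1.94 RPM in flat cultures 2 and 4 and 234 and 144 RPM in flat cultures 1 and 3, a limma log2 difference of −6.36 (SE 0.36, adjusted p = 0.00490), and was lower in both de Bruijn cultures. *Ly6a*, which encodes the surface antigen Sca1 and was at 161 and 167 RPM in the pair 1-2, 92.9 and 109 RPM in the pair 3-4 and 258 and 309 RPM in the pair 5-6, stood at 13.4 and 15.3 RPM in flat cultures 2 and 4 and 2000 and 1260 RPM in flat cultures 1 and 3, a limma log2 difference of −6.74 (SE 0.33, adjusted p = 0.00490), and was likewise lower in both. *Cd34* and *AU021092*, at 0 in both de Bruijn cultures, stood at 72.6 and 26.5 RPM and at 46.2 and 19.4 RPM in flat cultures 1 and 3, and both were called lower. *Tagln* stood at 589 and 940 RPM in flat cultures 2 and 4 and 18.7 and 39.8 RPM in flat cultures 1 and 3, a limma log2 difference of 4.74 (SE 0.46, adjusted p = 0.00920), and was higher in both de Bruijn cultures. *Fam5c* stood at 73.8 and 62.7 RPM in flat cultures 2 and 4 and 0.576 and 5.04 RPM in flat cultures 1 and 3, a limma log2 difference of 4.81 (SE 0.79, adjusted p = 0.0337), with both de Bruijn cultures above the others. Other genes did not take this order. *Dcn*, highest in the pair 3-4, was lower in the de Bruijn cultures (limma log2 difference of −4.13 (SE 0.61, adjusted p = 0.0255)), and *Cmklr1*, lowest in the pair 3-4, was higher in them (2.15 (SE 0.39, adjusted p = 0.0440)).

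Flat culture 3 lay toward reaggregates 1 to 4 for many of the higher genes. Of the 1232 higher genes 962 (78.1%) had their highest flat value in flat culture 3, compared with 44 of the 179 lower genes (24.6%) and 6489 of all 16292 genes (39.8%). *Leng8* stood at 19.3 and 35.2 RPM in flat cultures 2 and 4 and 39.2 and 195 RPM in flat cultures 1 and 3. *Sfrs18* stood at 8.46 and 24.9 RPM in flat cultures 2 and 4 and 37.3 and 109 RPM in flat cultures 1 and 3, and *Igf2* at 0.119 and 0.121 RPM in flat cultures 2 and 4 and 0.806 and 18.6 RPM in flat cultures 1 and 3. For these genes flat culture 3 exceeded the other flat cultures and reaggregates 5 and 6. The mitochondrial genome took 1.08, 0.768, 2.79 and 1.98% of all RPM in flat cultures 1 to 4, so that culture 3 had the highest share of the flat cultures and was under reaggregates 5 and 6. Whatever sets flat culture 3 apart was not tested.

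IL-3 is a cytokine of mast cells and early blood progenitors. With 3 reaggregates on each side, the IL-3 comparison is balanced over the split. Limma without the pairs called 0 of 16292 genes (0.0%) higher and 0 (0.0%) lower with IL-3 at the thresholds used for the flat cultures. In that fit the differences between pairs were part of the spread. Their root mean square was 0.50 to 0.73, against 0.28 to 0.29 within pairs. Its 0 calls therefore do not show that IL-3 was without effect. The lowest adjusted p was 1.0, and 20 genes had an unadjusted p under 0.05. In the other settings without a block, that number was between 3 and 244, and the calls were again 0. With consecutive reaggregates paired as a block, limma called 0 genes higher and 3 lower with IL-3 (*Gnb1l*, *CT010467.3* and the miRNA gene *mmu-mir-2133-2*, chosen after their values were seen), with 692 genes at an unadjusted p under 0.05. *Gnb1l* was at 61.8, 920 and 203 RPM in reaggregates 1, 3 and 5 and at 80.6, 51.1 and 83.2 RPM in reaggregates 2, 4 and 6. Reaggregate 3 was far above the rest and reaggregate 1, without IL-3, was below reaggregate 2, so that the groups overlapped. All 3 called genes were highest in reaggregate 3, next in reaggregate 5 and lowest in reaggregate 4. The 3 calls may therefore not be separate observations.

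Differences between the pairs also differed by chromosome. Among 11433 genes with a mean of at least 5 RPM, the median difference between the pairs 1-2 and 3-4 was 0.32 on chromosome 4, from 755 genes, and 0.04 over all chromosomes.

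**Figure D3:**
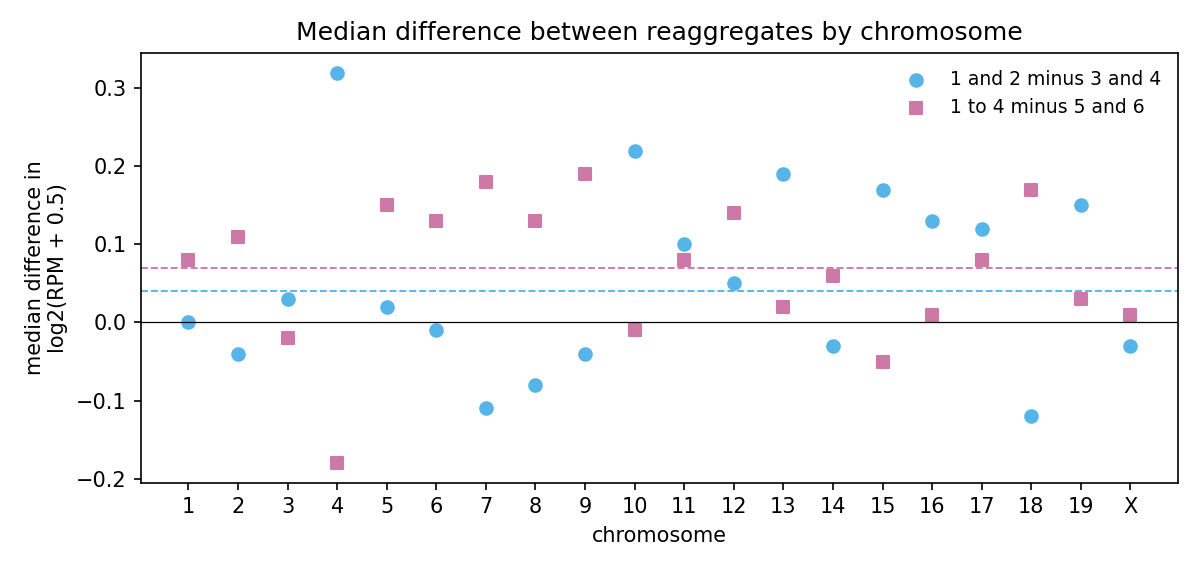
Median difference in log2(RPM + 0.5) over genes with a mean of at least 5 RPM, for each nuclear chromosome, between the pairs 1-2 and 3-4 (circles) and between reaggregates 1 to 4 and 5 and 6 (squares), with the medians over all of these genes as dashed lines (0.04 and 0.07). Chromosome 4 is the highest for the circles, at 0.32, and the lowest for the squares, at −0.18.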

How the data were processed

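RNA of 10 OP9 libraries was sequenced from TruSeq libraries, and the authors mapped reads with TopHat 1.2.0 to NCBI37/mm9 and counted them over Ensembl genes, where a read with several positions was divided. The values they deposited are RPM, 1 for each gene in each library. The kit was not stated to keep the strand. The authors' further columns, a log2 fold change and an adjusted p-value of reaggregates against flat cultures from DESeq, were not used, and 0 other columns of values were left unused. Of values up to 10 RPM, a share of 62.7% to 64.9% per library came out as whole reads (tolerance 1%), so no count test was run, and a floor of 3 reads covers counting error only.

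The reaggregates were compared as log2(RPM + 0.5), without a test, by a fold of at least 2 and absence of overlap. The flat cultures and IL-3 were compared with limma 3.58.1 in R 4.3.3 (moderated linear model with a mean-variance trend, two-sided), with calls at a fold of at least 2 and an adjusted p of at most 0.05, where the study's own count-based method could not be used on RPM. The procedure was tested on simulated data. Tables and figures were made with Python 3.11.15 and matplotlib 3.10.9. Coordinates came from an annotation of NCBI37/mm9 in a later Ensembl release than that of the authors, which matched 15848 (97.3%) of the 16292 genes.

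Gene lists, 62 in all, were described by counts and medians, and 5 more were added after the values were seen. The split, its members and the lists were chosen with earlier results of these data known. Among genes with a mean of at least 5 RPM, those named are the 12 largest differences in each direction between reaggregates 1 to 4 and 5 and 6 that reached 2-fold in both pairs without overlap, the 5 largest in each direction between the pairs 1-2 and 3-4, and up to 3 members per list with the largest differences. The genes that the study names, for OP9 or as secreted candidates from the embryo, and the 2 nearest to each side of the threshold were added. Members named because they make up a small count were chosen after their values were seen. Some genes that these rules select are not reported here. The alternatives covered the pseudocount, the filter, scaling, the fold, IL-3, each pair alone, each library left out and, for IL-3, consecutive reaggregates as a block.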

Additional observations from a re-analysis of the deposited data

Results flagged for a closer look

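In 222 groups of 6 values, a reaggregate was looked for that stood far from the rest, which chance gives in about 1 of 20 unselected groups. The groups were the named genes, the shares of reads by class and the 3 genes called for IL-3 when consecutive reaggregates were paired. Most groups were chosen for their values, so that rate does not apply to them. Reaggregate 3 stood far above the other reaggregates in 3 groups. These are the 3 genes called for IL-3, which were included because of that call. *CT010467.3* was at 513 RPM there and between 66.8 and 205 RPM in the others. *Gnb1l* was at 920 RPM there and between 51.1 and 203 RPM in the others, and *mmu-mir-2133-2* was at 1060 RPM and between 50.2 and 221 RPM. What sets reaggregate 3 apart in these genes was not tested.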

How the results depend on the processing

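For reaggregates 1 to 4 against 5 and 6 (1232 higher and 179 lower), the counts moved by more than 1.5 times as follows. In genes with a mean of at least 5 RPM they were 705 and 104. After quantile normalization they were 785 and 358. A fold of at least 1.5 gave 2974 and 606, and a fold of at least 4 gave 170 and 13. With IL-3 only, 285 genes were lower. With the pair 1-2 alone 52 were lower, and with the pair 3-4 alone 589 were. Leaving out each library in turn gave between 1175 and 1351 higher and between 133 and 264 lower genes.

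For the pair 1-2 against 5-6 (1236 and 52), the pseudocount of 0.1 gave 1955 and 134, the mean of at least 5 RPM 642 and 22, and quantile normalization 698 and 184. Median-ratio scaling gave 88 lower genes. The counts without 1 library ran from 1243 to 1478 and from 73 to 85. For the pair 3-4 against 5-6 (1532 and 589), the mean of at least 5 RPM gave 865 and 323, and leaving out a library gave between 1557 and 1657 and between 603 and 662. For the pair 1-2 against 3-4 (585 and 239), the pseudocount of 0.1 gave 962 and 417 and the mean of at least 5 RPM 262 and 114, and leaving out a library gave between 620 and 690 and between 256 and 289. The filter on the mean tests fewer genes. Otherwise the cause was not tested.

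In the flat cultures (309 and 656 by limma), analysis without a filter gave 92 and 155, quantile normalization gave 486 higher, and each library left out gave 0 and 0, with a lone library assumed to vary like the others. For IL-3 (0 and 0), each library left out again gave 0 and 0. Numbers of the reaggregates are not shared between IL-3 groups, and the pairing of consecutive reaggregates rests on the data; as a block it gave 0 higher and 3 lower genes.

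Scaling without the mitochondrial genome (1199 and 193) and protein-coding genes alone (994 and 162), both chosen after the data were seen, stayed within 1.5 times. Of 3784 values for 211 named genes over 18 settings, 3643 stayed within 1 SD, and 0 named genes that were higher or lower changed sign. Of 1164 list medians, 925 stayed within 1 SD and 239 moved further.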

Other observations

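The differences were spread unevenly over chromosomes. Among 11433 genes with a mean of at least 5 RPM, the median log2 difference between the pairs 1-2 and 3-4 was 0.32 for the 755 genes of chromosome 4, 0.22 for the 532 genes of chromosome 10 and 0.19 for the 391 genes of chromosome 13, compared with 0.04 over all of them. It was −0.11 for the 788 genes of chromosome 7 and −0.12 for the 272 genes of chromosome 18. Along chromosome 4, windows of 20 Mb (NCBI37/mm9) had medians between 0.22 and 0.40, all above 0.04. Within the pairs, the median of chromosome 4 was 0.01, 0.01 and 0.03. Between reaggregates 1 to 4 and 5 and 6, chromosome 4 was lowest of the nuclear chromosomes at −0.18, beside 0.07 over all of them, and reaggregates 3 and 4 differed from 5 and 6 by −0.30 there. The cause was not tested.

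Along chromosome 7 the median for reaggregates 1 to 4 against 5 and 6 was 0.38 in the first 20 Mb and 0.35 in the next 20 Mb, and 0.03 from 80 to 100 Mb. The share of higher genes varied with the length and the level of the genes. Of the fifth of genes with the shortest exons (median of 719 bases) 4.48% were higher, and of the fifth with the longest (median of 7600 bases) 8.9% were. By mean RPM, 12.8% of the genes of the fifth around 5.15 RPM were higher and 3.5% of those around 128 RPM.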
